A study of Mus musculus with 48 samples.

Results

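The 8 genes Dusp1, Dusp2, Dusp4, Dusp5, Dusp6, Dusp7, Dusp10 and Dusp16 encode dual-specificity MAP kinase phosphatases, and their RNA, their ribosome footprints and the ratio of both were measured in 8 genotypes of 1 mouse cell line. The genes were chosen by name, among 55487 genes of the deposited table, when earlier results of the same libraries were already known. Those earlier results included the level of Dusp2 in the clones with Rpl5 or Rpl11 loss, which is therefore given below as a description, with no p-value. For the other members, the p-values describe these libraries and are no independent evidence that the family responds. The symbols Dusp8 and Dusp9, which complete the classical family, had 0 RNA counts in all 24 RNA libraries. Dusp8 had 6 footprint counts in 4 libraries and Dusp9 had 25 in 13, so neither was tested.

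A MAP kinase is active when a threonine and a neighbouring tyrosine of its activation loop both carry phosphate, and a dual-specificity phosphatase removes both. Dusp1, Dusp2, Dusp4 and Dusp5 are nuclear enzymes whose genes are switched on within minutes to hours by mitogens and stress. Dusp6 and Dusp7 are cytoplasmic and act mainly on ERK, the kinase at the end of the Ras-Raf-MEK cascade, and Dusp10 and Dusp16 act mainly on the stress kinases JNK and p38. Many of these genes are targets of the kinases that their products inactivate, so they form negative feedback loops. In blood cell precursors that depend on interleukin 3, the cytokine itself feeds ERK signalling.

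All libraries came from Ba/F3, which is a pro-B cell line of the mouse and needs interleukin 3 to grow. CRISPR-Cas9 clones carried heterozygous loss of Rpl5 (Rpl5 +/-), Rpl11 (Rpl11 +/-) or Rpl22 (Rpl22 +/-), homozygous loss of Rpl22 (Rpl22 -/-), or the point mutations Rpl10 R98S/R98S, Rps15 P131S/P131S and Rps15 H137Y/H137Y, beside WT clones. The genotype field gives Rps15 P131S on both alleles, while the titles of its RNA libraries name the mutation once. Each genotype had 3 clones, and each clone gave 1 poly(A)-selected RNA library and 1 footprint library, 48 libraries in all. All cultures received 10% serum and 1 ng/ml interleukin 3, and all were exposed to cycloheximide, which arrests ribosomes, at 0.1 mg/ml for 1 min before harvest. Since cells kept on interleukin 3 were the single culture condition, the values describe steady growth and not the response to a stimulus.

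RNA libraries held 13029073 to 38258559 counts and footprint libraries 15598994 to 72044439. Levels are CPM, the count of a gene scaled to the size of its library. They are compared within a gene, since gene lengths were not used. The receptor genes Il3ra (25.6 to 35 CPM), Csf2rb (449 to 1720 CPM) and the leukocyte marker Ptprc (167 to 302 CPM) were present in every RNA library, while Kit and Cd24a were at 0 and Cd34 at 0 to 0.029 CPM. The early B-lineage genes Ebf1, Pax5, Rag1, Rag2, Igll1, Vpreb1 and Dntt did not exceed 0.301 CPM in any RNA library, so these defining markers of the labelled cell type were at or near 0. Of the other listed B-lineage genes, Cd79b was at 3.34 to 9.91 CPM and Cd79a at 0 to 9.81 CPM. Genes of other blood lineages varied between libraries, among them Cpa3 of mast cells (7.77 to 239 CPM), Prtn3 of myeloid cells (17.5 to 58.1 CPM) and Hba-a1 of red cells (9.74 to 228 CPM), and their part in the results was not tested. The clone numbered 30 of Rpl22 -/- had 1544 CPM of Rpl22 footprints, against 274 and 317 CPM in the other Rpl22 -/- clones (649 and 776) and 1427 to 1596 CPM in Rpl22 +/-. Rps15 RNA was 906 CPM in P131S clone 24 and 874 and 817 CPM in H137Y clones 2 and 6, against 1934 and 1825 CPM in P131S clones 20 and 63 and 1829 CPM in H137Y clone 16. Values without clone 30 or clone 24 are given beside the Rpl22 -/- and P131S results. Whether Rps15 level bears on the phosphatases was not tested.

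Promoter sequence was looked up for all members in RefSeq (GRCm38.p6) and matched for 7 of 8 (all but Dusp4). The 4 promoters shown belong to the members with the largest changes that had an entry (Dusp2, Dusp6, Dusp5) and to Dusp1, and each is the 250 bases before the annotated start, 5′ to 3′ on the gene's own strand. They lie at chr2:127335909-127336158 (plus strand, Dusp2), chr17:26508473-26508722 (minus strand, Dusp1), chr19:53528895-53529144 (plus strand, Dusp5) and chr10:99262981-99263230 (plus strand, Dusp6). Capitals mark matches to the motifs searched, and a match is a description of letters, not a bound site.
Dusp1: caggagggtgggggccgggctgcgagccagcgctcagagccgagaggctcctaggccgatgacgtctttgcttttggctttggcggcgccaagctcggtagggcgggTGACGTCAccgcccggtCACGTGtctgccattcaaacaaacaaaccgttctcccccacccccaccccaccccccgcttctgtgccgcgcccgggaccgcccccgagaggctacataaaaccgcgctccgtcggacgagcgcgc
Dusp2: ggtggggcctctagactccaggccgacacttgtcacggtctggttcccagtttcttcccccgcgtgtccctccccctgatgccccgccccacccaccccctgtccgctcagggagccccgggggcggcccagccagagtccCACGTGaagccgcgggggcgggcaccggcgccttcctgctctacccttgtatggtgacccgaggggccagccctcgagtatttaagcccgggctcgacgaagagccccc
Dusp5: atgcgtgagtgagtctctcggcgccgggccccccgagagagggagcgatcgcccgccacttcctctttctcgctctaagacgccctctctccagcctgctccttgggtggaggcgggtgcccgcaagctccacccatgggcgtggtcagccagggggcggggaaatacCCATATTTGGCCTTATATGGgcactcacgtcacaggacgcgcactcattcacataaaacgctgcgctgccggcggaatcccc
Dusp6: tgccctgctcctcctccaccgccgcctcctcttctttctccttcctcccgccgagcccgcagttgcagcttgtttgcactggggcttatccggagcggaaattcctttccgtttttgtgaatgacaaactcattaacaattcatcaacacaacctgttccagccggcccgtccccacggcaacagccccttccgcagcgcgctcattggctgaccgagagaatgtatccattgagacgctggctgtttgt

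The motifs were searched on both strands of the same window in 32851 promoters. The Dusp1 promoter held the cAMP response element TGACGTCA, 143 to 136 bases before the start, which 1.55% of promoters hold. It also held the E-box CACGTG, 126 to 121 bases before the start, and Dusp2 held the same E-box 109 to 104 bases before its start, as 6.02% of promoters do. Dusp5 held a pair of adjacent CArG boxes, the sequence read by serum response factor, with the letters CCATATTTGG (82 to 73 bases before the start) and CCTTATATGG (72 to 63 bases before it), and 1.47% of promoters hold at least 1 such box. No match overlapped another. The AP-1 site TGANTCA (6.75% of promoters), the ETS site CCGGAAG (6.91%) and the STAT site TTCNNNGAA (7.02%) had no match in any of the 7 windows. Dusp6, Dusp7, Dusp10 and Dusp16 had no match to any motif searched. In RNA, Dusp2 was called higher in both Rps15 mutants, both Rpl22 genotypes and Rpl10 R98S/R98S. Dusp6 was called lower in both Rps15 mutants, Rpl22 +/- and Rpl10 R98S/R98S. Dusp1 was called higher in P131S, and Dusp5 higher in Rpl22 -/- and lower in H137Y. Some of these calls, among them Dusp5 in Rpl22 -/-, were lost when 1 clone was left out, as given below. Whether the motifs bear on these changes was not tested.

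Each member was compared between every mutant genotype and WT, between both Rpl22 genotypes and between both Rps15 mutations, 9 comparisons for each of RNA, footprints and ratio. A change is a log2 difference from edgeR's quasi-likelihood test with its standard error (SE), and a gene is called where its p-value, adjusted by the Benjamini-Hochberg method over all genes tested, is under 0.05. All 7 mutant genotypes are set against the same 3 WT clones, so their changes are not independent of each other. The labels name clones, not separate editing experiments. A p-value sets a difference against the spread between clones, which is estimated over all genotypes in the fit and not from the compared genotypes alone. All 8 members passed the filter on low counts at every level.

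**Figure D1:**
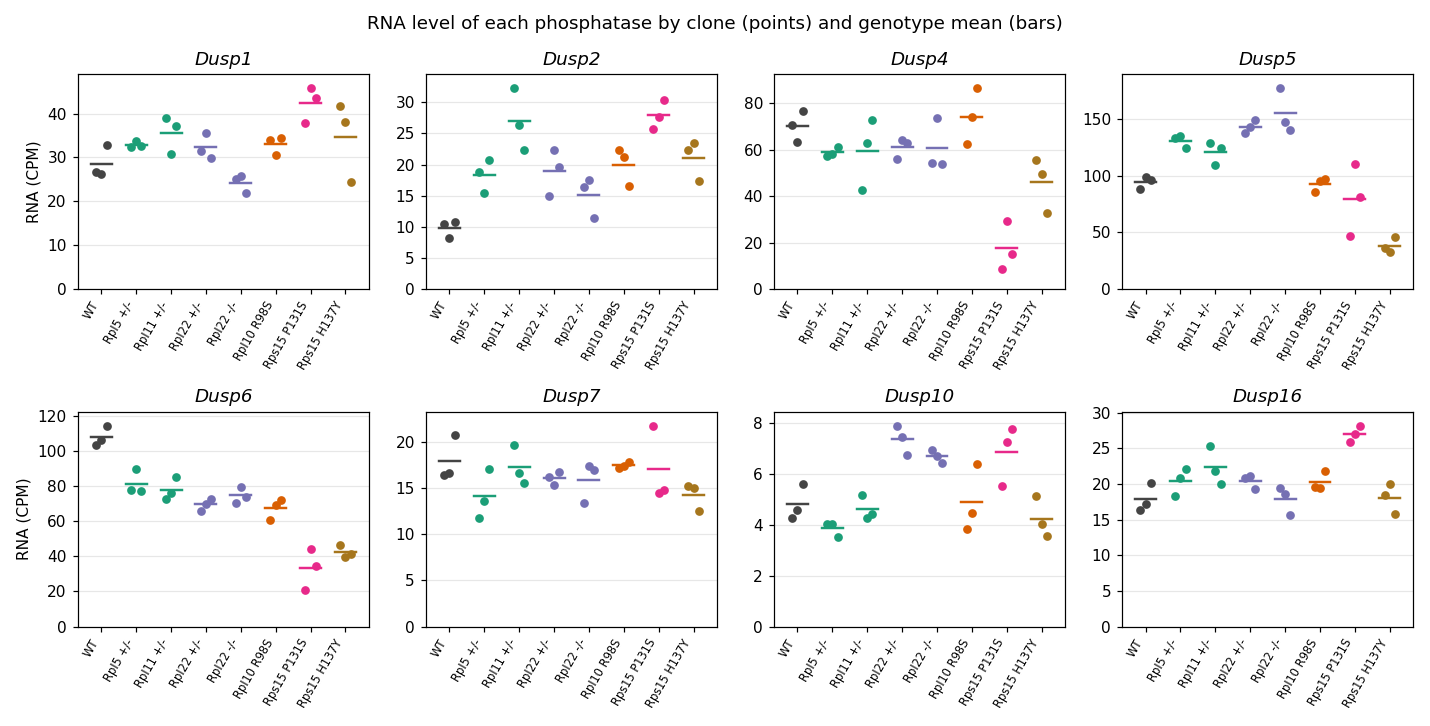
RNA level of each phosphatase in CPM (linear axis from 0) in the 8 genotypes; points are the 3 clones of a genotype and bars their mean. Dusp2 lies above WT and Dusp6 below WT in all 21 mutant clones, and Dusp4 is lowest in the Rps15 P131S clones.

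Across the 7 mutant genotypes, Dusp2 RNA was above the highest WT clone in 21 of 21 mutant clones and Dusp6 RNA below the lowest WT clone in 21 of 21. The share of all genes with clones so placed was not counted, so these positions, here and below, are a description only. Dusp4 RNA was below the WT range in 16 mutant clones, within it in 4 and above it in 1. Dusp1, Dusp5, Dusp10 and Dusp16 had at least 2 mutant clones on each side of the WT range. Dusp7 RNA was below the WT range in 11 of 21 mutant clones, within it in 9 and above it in 1, and passed no test. The plot of RNA by clone shows these positions for all members.

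Dusp2, a nuclear phosphatase found mainly in blood cells, had the highest log2 footprint change of the 8 genes in each of the 7 mutant genotypes. WT clones had 10.5, 8.21 and 10.8 CPM of Dusp2 RNA. The clones had 18.9, 15.4 and 20.7 CPM in Rpl5 +/- and 32.3, 26.3 and 22.4 CPM in Rpl11 +/-. These 6 clones all lay above the WT clones, with a log2 change of 0.90 (SE 0.19) in Rpl5 +/- and 1.46 (SE 0.18) in Rpl11 +/-.

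Dusp2 RNA was 14.9, 22.3 and 19.7 CPM in Rpl22 +/- and 16.3, 17.6 and 11.4 CPM in Rpl22 -/-. It was 22.4, 21.2 and 16.5 CPM in Rpl10 R98S/R98S. It was 25.7, 27.7 and 30.4 CPM in Rps15 P131S/P131S and 22.3, 23.4 and 17.4 CPM in Rps15 H137Y/H137Y. No mutant clone overlapped WT, and the lowest was Rpl22 -/- clone 776. Dusp2 RNA rose in each of these genotypes by edgeR: by 0.95 (SE 0.18, adjusted p = 0.00439) in Rpl22 +/-, 1.03 (SE 0.18, adjusted p = 0.00118) in Rpl10 R98S/R98S, 1.51 (SE 0.18, adjusted p = 2.6e-06) in P131S and 1.10 (SE 0.18, adjusted p = 9.23e-05) in H137Y. Without clone 24 the P131S change was again 1.51. The increase in Rpl22 -/- was the smallest (0.64, SE 0.19, adjusted p = 0.0495). It was called in 1 of 6 fits that left out a clone, with adjusted p-values from 0.0238 (without clone 776) to 0.219, and was 0.58 without clone 30 (adjusted p = 0.175). In order of mean RNA, P131S (27.9 ± 2.34 CPM, SD, n = 3) came first, then Rpl11 +/-, H137Y, Rpl10 R98S/R98S, Rpl22 +/-, Rpl5 +/- and Rpl22 -/- (15.1 ± 3.25), and WT (9.82 ± 1.41) last. Each mutant genotype overlapped its neighbours in that order, and only Rpl22 -/- and WT were apart.

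Dusp2 footprints were 5.28, 3.88 and 4.06 CPM in WT. They were 15.9, 12.9 and 15.6 CPM in Rpl5 +/- and 30.8, 29.4 and 17.99 CPM in Rpl11 +/-, log2 changes of 1.75 (SE 0.23) and 2.56 (SE 0.24). They were 21.2, 24.1 and 15.5 CPM in Rpl22 +/- and 18.9, 15.7 and 13.0 CPM in Rpl22 -/-. All of these clones lay above every WT clone. Dusp2 footprints rose by 2.20 (SE 0.24, adjusted p = 6.93e-05) in Rpl22 +/- and by 1.85 (SE 0.23, adjusted p = 0.000675) in Rpl22 -/-, with 1.71 (adjusted p = 0.00669) without clone 30. A fit to Rpl22 +/- and WT alone gave 2.19 with an adjusted p = 0.0774, which does not pass.

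In Rpl10 R98S/R98S, Dusp2 footprints were 15.5, 12.8 and 9.89 CPM. In the Rps15 mutants they were 24.5, 20.4 and 17.2 CPM (P131S) and 13.3, 16.9 and 16.1 CPM (H137Y). The lowest mutant clone was Rpl10 clone A34, and it was still above the highest WT clone. The increases were 1.53 (SE 0.23, adjusted p = 0.00208), 2.23 (SE 0.23, adjusted p = 6.45e-06) and 1.81 (SE 0.23, adjusted p = 5.72e-05), and that of P131S was 2.27 without clone 24.

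**Figure D2:**
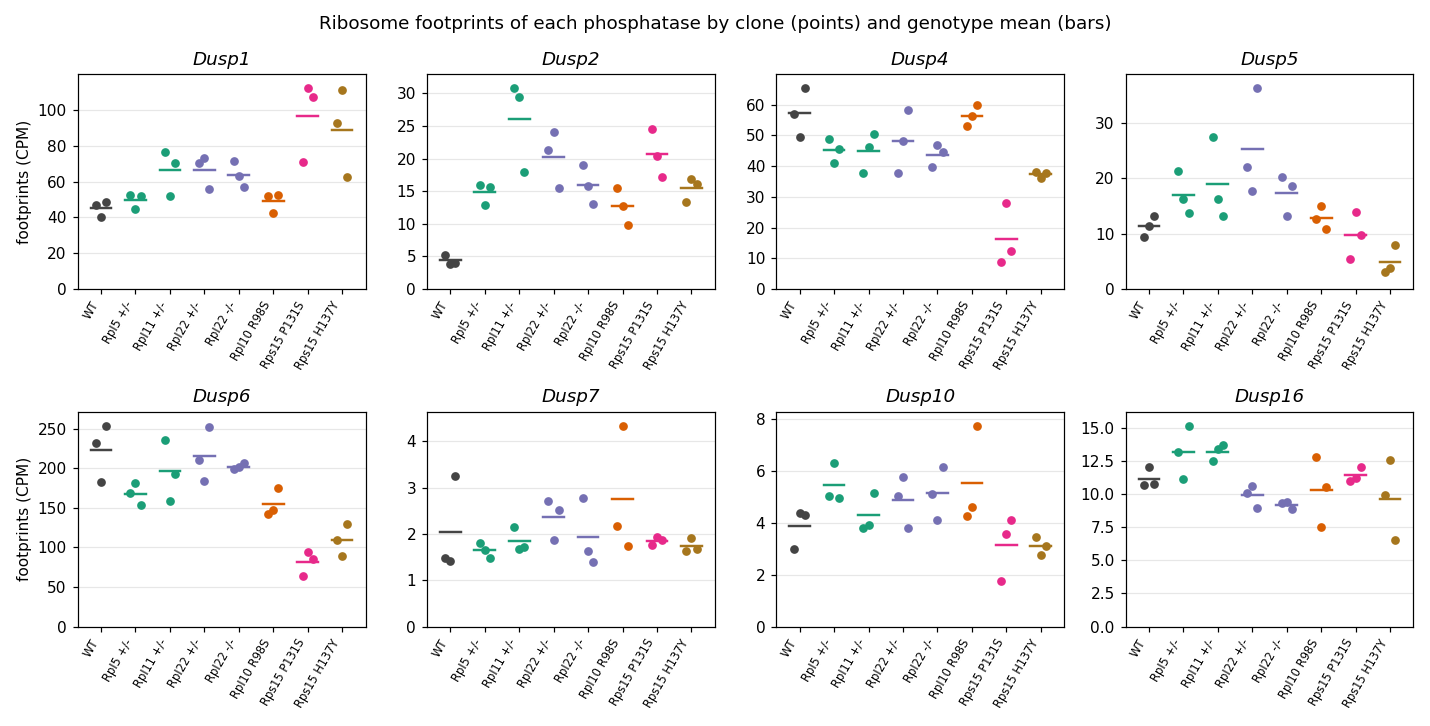
Ribosome footprint level of each phosphatase in CPM (linear axis from 0) in the 8 genotypes; points are the 3 clones and bars their mean. Dusp2 footprints lie above WT in all 21 mutant clones, and Dusp6 footprints are lowest in the clones of both Rps15 mutations.

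Dusp1, a nuclear phosphatase of p38, JNK and ERK that responds early to stress and growth factors, rose in footprints in both Rps15 mutants and in RNA in P131S. Its RNA was 26.8, 26.3 and 32.7 CPM in WT and 37.8, 45.8 and 43.5 CPM in P131S, where no clone overlapped WT. The RNA change was 0.57 (SE 0.14, adjusted p = 0.00276), and 0.51 without clone 24. In H137Y it was 41.7, 38.0 and 24.3 CPM, with clone 6 below every WT clone, and the change of 0.28 (SE 0.14, adjusted p = 0.124) did not pass by edgeR. Without clone 6 the change was 0.48 (adjusted p = 0.00188).

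Dusp1 footprints were 46.8, 40.5 and 48.5 CPM in WT, 71.2, 112.1 and 107.3 CPM in P131S and 92.8, 111.1 and 62.6 CPM in H137Y. All 6 mutant clones were above WT. Footprints rose by 1.10 (SE 0.20, adjusted p = 0.000717) in P131S and by 0.97 (SE 0.20, adjusted p = 0.00285) in H137Y, and the P131S value was 1.01 without clone 24. Every clone with Rpl11 loss or with either Rpl22 genotype also lay above WT, with changes of 0.55, 0.55 and 0.50 that did not pass (adjusted p = 0.318, 0.231 and 0.594 by edgeR), the last being 0.41 without clone 30. Rpl5 +/- (0.14) and Rpl10 R98S/R98S (0.11) overlapped WT.

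Dusp4, a nuclear phosphatase of ERK and JNK, fell in Rps15 P131S/P131S at both levels. WT clones had 70.6, 63.2 and 76.9 CPM of RNA, and P131S clones 20, 24 and 63 had 8.46, 29.3 and 15.3 CPM. P131S clones did not overlap WT, and clone 24, which also had the lowest Rps15 RNA of the P131S clones, had the most Dusp4. Among H137Y clones, clone 16 had the highest Rps15 RNA (1829 CPM) and the most Dusp4 RNA (55.5 CPM). Dusp4 footprints of the H137Y clones were 36.12 to 37.94 CPM. Whether Rps15 level bears on Dusp4 was not tested. The RNA change in P131S was -1.99 (SE 0.32, adjusted p = 7.55e-05), and -2.57 without clone 24. Footprints were 56.9, 49.6 and 65.3 CPM in WT and 8.84, 28.0 and 12.2 CPM in P131S, with a change of -1.81 (SE 0.27, adjusted p = 0.000195) that was -2.41 without clone 24.

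H137Y clones had 55.5, 49.6 and 32.8 CPM of Dusp4 RNA, all below WT, and a change of -0.61 (SE 0.30) that did not pass (edgeR adjusted p = 0.113). Their footprints of 37.94, 36.12 and 37.85 CPM were also all below WT. That change of -0.62 (SE 0.26) did not pass (edgeR adjusted p = 0.141). With every clone kept, 1 of 5 alternative fits called Dusp4 in H137Y at each of these levels. In the other 5 mutant genotypes the RNA change ranged from -0.25 to 0.08, and 0 of 5 passed at either level by edgeR. The Rpl10 R98S/R98S clones had the highest mean (74.4 ± 12.1 CPM, SD, n = 3) and overlapped WT (70.2 ± 6.84).

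Dusp5, a nuclear phosphatase that acts mainly on ERK, fell in RNA in one Rps15 mutant and rose in Rpl22 -/-. Its RNA was 88.6, 98.3 and 96.1 CPM in WT. It was 36.0, 32.8 and 46.1 CPM in H137Y, with a change of -1.30 (SE 0.20, adjusted p = 5.37e-05) and no overlap with WT. In P131S the clones 20, 24 and 63 had 46.4, 109.9 and 80.9 CPM, on both sides of WT, with a change of -0.26 (SE 0.19, adjusted p = 0.295 by edgeR). Without clone 24 the P131S change was -0.57 (adjusted p = 0.0092), and without clone 20 it was 0.01.

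In the large-subunit heterozygotes and Rpl22 -/-, Dusp5 RNA was above every WT clone. It was 133.1, 134.8 and 124.7 CPM in Rpl5 +/- and 128.3, 109.4 and 123.9 CPM in Rpl11 +/-. It was 137.9, 142.4 and 148.8 CPM in Rpl22 +/- and 177.0, 147.5 and 140.0 CPM in Rpl22 -/-. Of these 4, Rpl22 -/- passed (0.72, SE 0.19, adjusted p = 0.0365 by edgeR), and that call was lost in each of the 6 fits that left out a clone: 0.61, 0.75 and 0.78 without clones 30, 649 and 776 (adjusted p = 0.164, 0.0692 and 0.0602) and 0.67, 0.75 and 0.73 without WT clones 1, 2 and 3 (adjusted p = 0.132, 0.0923 and 0.111). The changes in Rpl5 +/- (0.47, adjusted p = 0.252), Rpl11 +/- (0.35, adjusted p = 0.251) and Rpl22 +/- (0.60, adjusted p = 0.0982) did not pass by edgeR over all RNA libraries. With every clone kept, 1, 1 and 2 of 5 alternative fits called them. These were edgeR fits to the 2 groups compared (adjusted p = 0.000157, 0.0328 and 0.000138) and, for Rpl22 +/-, DESeq2 (adjusted p = 0.0225).

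Dusp5 footprints were 9.48, 11.3 and 13.1 CPM in WT and 3.00, 3.82 and 7.98 CPM in H137Y. The H137Y change of -1.21 (SE 0.38, adjusted p = 0.0399) was called in 1 of 6 fits that left out a clone, the one without H137Y clone 6. The values were -0.95 and -1.05 without H137Y clones 16 and 2 (adjusted p = 0.165 and 0.142) and -1.32, -1.20 and -1.09 without WT clones 1, 2 and 3 (adjusted p = 0.0615, 0.0916 and 0.124). Rpl22 +/- had 22.1, 17.7 and 36.3 CPM, all above WT, and a change of 1.16 (SE 0.37) that did not pass (adjusted p = 0.19). Its highest clone, 60, came from the shallowest footprint library, and the change was 0.81 without it.

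Dusp6, a cytoplasmic phosphatase of ERK and a transcript widely used as a readout of ERK activity, was lower in RNA in every mutant genotype. WT clones had 103.4, 106.2 and 114.2 CPM. P131S clones had 20.7, 44.2 and 34.5 CPM and H137Y clones 46.6, 39.6 and 41.4 CPM, the lowest of all genotypes. Dusp6 RNA fell by 1.71 (SE 0.17, adjusted p = 3.11e-07) on the log2 scale in P131S and by 1.34 (SE 0.16, adjusted p = 4.12e-06) in H137Y. Without clone 24 the P131S change was -1.97.

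The Rpl10 R98S/R98S clones had 60.4, 69.2 and 72.0 CPM of Dusp6 RNA and the Rpl22 +/- clones 65.8, 69.9 and 72.7 CPM. Dusp6 RNA fell by 0.68 (SE 0.16, adjusted p = 0.00886) in the former and by 0.64 (SE 0.16, adjusted p = 0.0285) in the latter. The Rpl10 call was lost without clone A29 (-0.61, adjusted p = 0.0516). The Rpl22 +/- call was lost in each fit that left out a clone, with -0.60, -0.64 and -0.67 without clones 13, 16 and 60 (adjusted p = 0.118, 0.104 and 0.063) and -0.66, -0.65 and -0.59 without WT clones 1, 2 and 3 (adjusted p = 0.0641, 0.0751 and 0.123). Clones of Rpl5 +/- (77.4, 89.4 and 76.9 CPM), Rpl11 +/- (72.3, 75.7 and 85.1 CPM) and Rpl22 -/- (70.5, 79.6 and 73.9 CPM) were also below WT. Their changes of -0.41, -0.47 and -0.53 did not pass (adjusted p = 0.221, 0.0592 and 0.0617 by edgeR). The Rpl22 -/- change was -0.49 without clone 30 (adjusted p = 0.206). For Rpl11 +/- and Rpl22 -/-, DESeq2 and limma voom gave adjusted p-values under the threshold (0.0245 and 0.0385, and 0.0166 and 0.0427).

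In order of mean Dusp6 RNA, WT (107.9 ± 5.6 CPM, SD, n = 3) stood apart from Rpl5 +/- (81.2 ± 7.1), which came next. Rpl5 +/-, Rpl11 +/-, Rpl22 -/-, Rpl22 +/- and Rpl10 R98S/R98S (67.2 ± 6.03) overlapped each with its neighbour. H137Y (42.5 ± 3.64) stood apart from these and overlapped P131S (33.1 ± 11.8).

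Dusp6 footprints were 232.3, 182.7 and 253.7 CPM in WT, 63.4, 94.8 and 85.3 CPM in P131S and 109.1, 88.8 and 129.8 CPM in H137Y. They fell by 1.46 (SE 0.17, adjusted p = 2.88e-05) and by 1.03 (SE 0.17, adjusted p = 0.000653) on the log2 scale, with no overlap with WT. The P131S change was -1.55 without clone 24. In Rpl22 +/-, where the RNA was lower in every clone, the footprints of 210.3, 184.2 and 251.8 CPM overlapped WT (change -0.05, SE 0.17, adjusted p = 0.933 by edgeR). Rpl11 +/- (235.9, 158.9 and 192.9 CPM) and Rpl22 -/- (198.8, 201.3 and 206.0 CPM) overlapped WT as well. Rpl5 +/- (-0.41) and Rpl10 R98S/R98S (-0.52) lay below every WT clone without passing (adjusted p = 1 and 0.14).

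Dusp7, the other cytoplasmic ERK phosphatase, passed in 0 of 7 genotypes against WT by edgeR at either level. Its RNA was 16.5, 16.7 and 20.8 CPM in WT and 11.8 to 21.8 CPM over the mutant clones. Its footprints were few, 1.48, 1.404 and 3.24 CPM in WT and 1.39 to 4.33 CPM in mutants. The RNA changes against WT ran from -0.34 to -0.04 and the unadjusted p was under 0.05 in Rpl5 +/- (0.0402) and in H137Y (0.0433).

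Dusp10 and Dusp16, the phosphatases of JNK and p38, rose in RNA in P131S. The footprints of both overlapped WT there, as did Dusp10 RNA. Dusp16 RNA was 16.4, 17.3 and 20.2 CPM in WT and 25.8, 27.0 and 28.2 CPM in P131S, with no overlap and a change of 0.59 (SE 0.11, adjusted p = 0.000163) that was the same without clone 24. Its footprints were 10.7, 12.03 and 10.74 CPM in WT and 10.98, 11.17 and 12.02 CPM in P131S, a change of 0.03 (SE 0.20, adjusted p = 0.949 by edgeR). H137Y clones had 18.4, 20.0 and 15.8 CPM of Dusp16 RNA and overlapped WT.

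Dusp10 RNA was 4.25, 4.58 and 5.58 CPM in WT and 5.52, 7.24 and 7.76 CPM in P131S, where clone 20 lay just below the highest WT clone. The change of 0.51 (SE 0.18, adjusted p = 0.0225) was called in 2 of 6 fits that left out a clone. It was 0.46 and 0.41 without P131S clones 24 and 63 (adjusted p = 0.0633 and 0.1) and 0.43 and 0.48 without WT clones 1 and 2 (adjusted p = 0.096 and 0.0692). Dusp10 footprints were 2.99, 4.39 and 4.31 CPM in WT and 1.77, 3.59 and 4.13 CPM in P131S (change -0.30, SE 0.31, adjusted p = 0.585 by edgeR). Rpl22 +/- (7.88, 7.42 and 6.73 CPM) and Rpl22 -/- (6.94, 6.67 and 6.42 CPM) had more Dusp10 RNA than any WT clone, with changes of 0.61 and 0.48 that did not pass by edgeR (adjusted p = 0.0541 and 0.138), the latter being 0.45 without clone 30. For Rpl22 +/-, DESeq2 and limma voom gave adjusted p-values of 0.0249 and 0.0274.

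**Figure D3:**
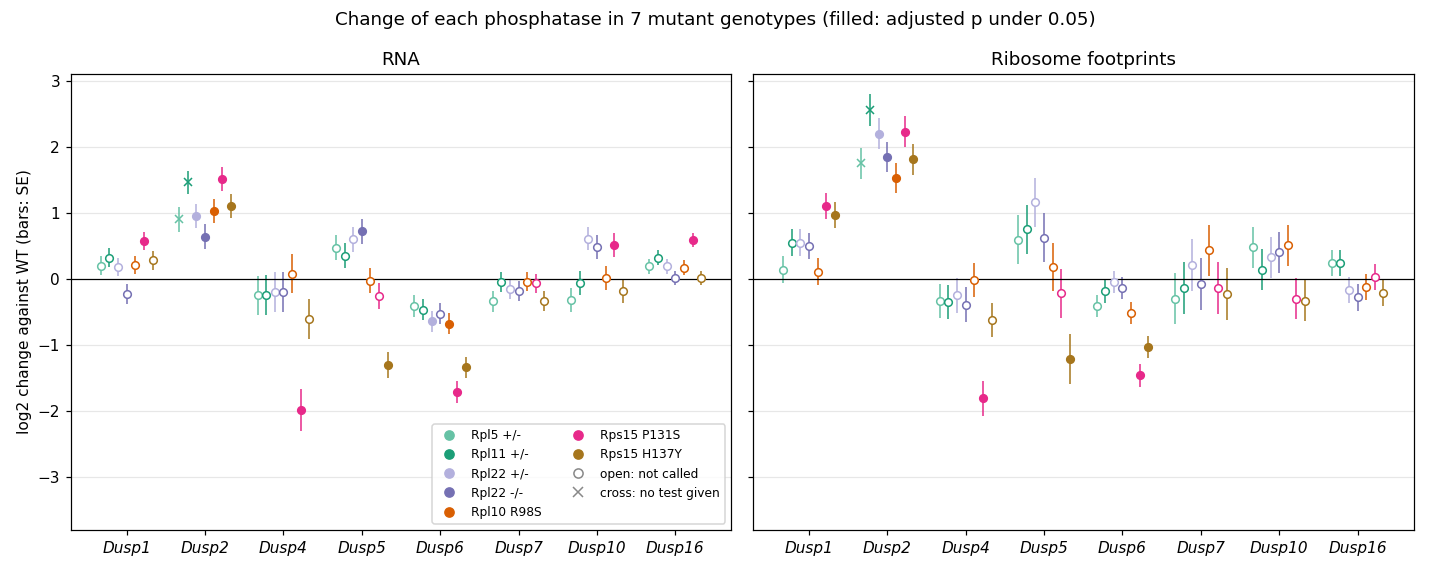
Log2 change of each phosphatase against WT in the 7 mutant genotypes, RNA at left and footprints at right; bars are SE, filled points passed the adjusted p threshold, and crosses (Dusp2 in Rpl5 +/- and Rpl11 +/-) are given with no test. Dusp2 lies above 0 in all 7 genotypes on both sides, and Dusp4, Dusp5 and Dusp6 have their lowest points in the Rps15 mutants.

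The number of members called is set beside the share of all genes called, from which nothing is read because the members were chosen with results known. Dusp2 in Rpl5 +/- and Rpl11 +/- is left out of these counts. In RNA, edgeR called 0 of the other 7 members in Rpl5 +/- against a background of 1.04% of 12814 genes, and DESeq2 and limma voom called 0. At an unadjusted edgeR p under 0.05 were 3 of these members in Rpl5 +/- and 3 in Rpl11 +/-, beside 1896 and 3447 of all genes. In Rpl11 +/- edgeR called 0 of these 7 (background 11.8%). There DESeq2 and limma voom each called 2, Dusp6 and Dusp16, among 1909 and 1597 genes called. Of all 8 members, there were 2 in Rpl10 R98S/R98S (12.9%), 2 in Rpl22 +/- (3.9%) and 2 in Rpl22 -/- (5.27%). In P131S 6 members were called, 4 higher and 2 lower, against 47% of genes, and in H137Y 3, 1 higher and 2 lower, against 41%. The Rpl11 +/- count of 0 became 2 without clone 414 (Dusp6 -0.54, adjusted p = 0.0481, and Dusp16 0.39, adjusted p = 0.025) and 1 without WT clone 3 (Dusp16 0.41, adjusted p = 0.0484). These 2 fits called 2187 and 664 of all genes, against 1508 with every clone kept. The median change of the members ran from -0.26 (H137Y) to 0.22 (P131S) in RNA, while the median of all genes ran from -0.01 to 0.01.

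In footprints, 1 member in each of Rpl5 +/- and Rpl11 +/-, with Dusp2 again left out, had an unadjusted edgeR p under 0.05. Of all 16214 genes, 666 and 1600 had such a p. By edgeR, DESeq2 or limma voom 0 of 7 members were called in Rpl5 +/- (background 0.0123%) and 0 in Rpl11 +/- (0.074%). Of all 8 members 1, Dusp2, was called in each of Rpl22 +/- (0.253%), Rpl22 -/- (0.105%) and Rpl10 R98S/R98S (1.62%). P131S had 4 called (Dusp1 and Dusp2 higher, Dusp4 and Dusp6 lower) against 16.7%, and H137Y 4 (Dusp1 and Dusp2 higher, Dusp5 and Dusp6 lower) against 11.7%. The median change of the members ran from -0.28 (H137Y) to 0.27 (Rpl22 +/-), and that of all genes from -0.04 to 0.02.

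Both Rps15 mutations were compared directly. In RNA, 4 members were called against 25.2% of genes. Dusp4 was lower in P131S than in H137Y (-1.38, SE 0.31, adjusted p = 0.00386). Dusp5 (1.04, SE 0.20, adjusted p = 0.000935), Dusp10 (0.69, SE 0.18, adjusted p = 0.00722) and Dusp16 (0.58, SE 0.11, adjusted p = 0.000595) were higher in P131S. Without clone 24 these 4 differences were -1.96, 0.73, 0.65 and 0.58, and all passed. For each of these genes the 3 P131S clones did not overlap the 3 H137Y clones. Dusp6 did not pass (-0.36, SE 0.16, adjusted p = 0.113), but was -0.63 with an adjusted p = 0.0036 without clone 24. Dusp1 (0.29, adjusted p = 0.149) was 0.44 with an adjusted p = 0.0408 without H137Y clone 16. In footprints, Dusp4 was the single member called, against 4.18% of genes (-1.19, SE 0.27, adjusted p = 0.014), and it was lost without P131S clone 20 (-0.87, adjusted p = 0.0699) or 63 (-1, adjusted p = 0.0717) and -1.80 without clone 24. Without H137Y clone 6, Dusp5 footprints were called too (1.53, adjusted p = 0.0384). A fit to these 2 genotypes alone called 0 of 8 members at either level, with adjusted p-values of 0.0536 to 0.155 for the 4 RNA changes and 0.243 for Dusp4 footprints.

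Rpl22 -/- and Rpl22 +/- clones differed in 0 of 8 members by edgeR, DESeq2 or limma voom, in RNA (background 0.0078%) and in footprints (0.00617%). The unadjusted edgeR p was under 0.05 for 1 member in RNA, Dusp1 (-0.41, SE 0.14), whose clones did not overlap, and for 0 in footprints. Of all genes tested, 538 in RNA and 2333 in footprints had such a p. Without clone 30 the Dusp1 difference was -0.43. The count stayed at 0 without clone 30 and without clone 60.

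**Figure D4:**
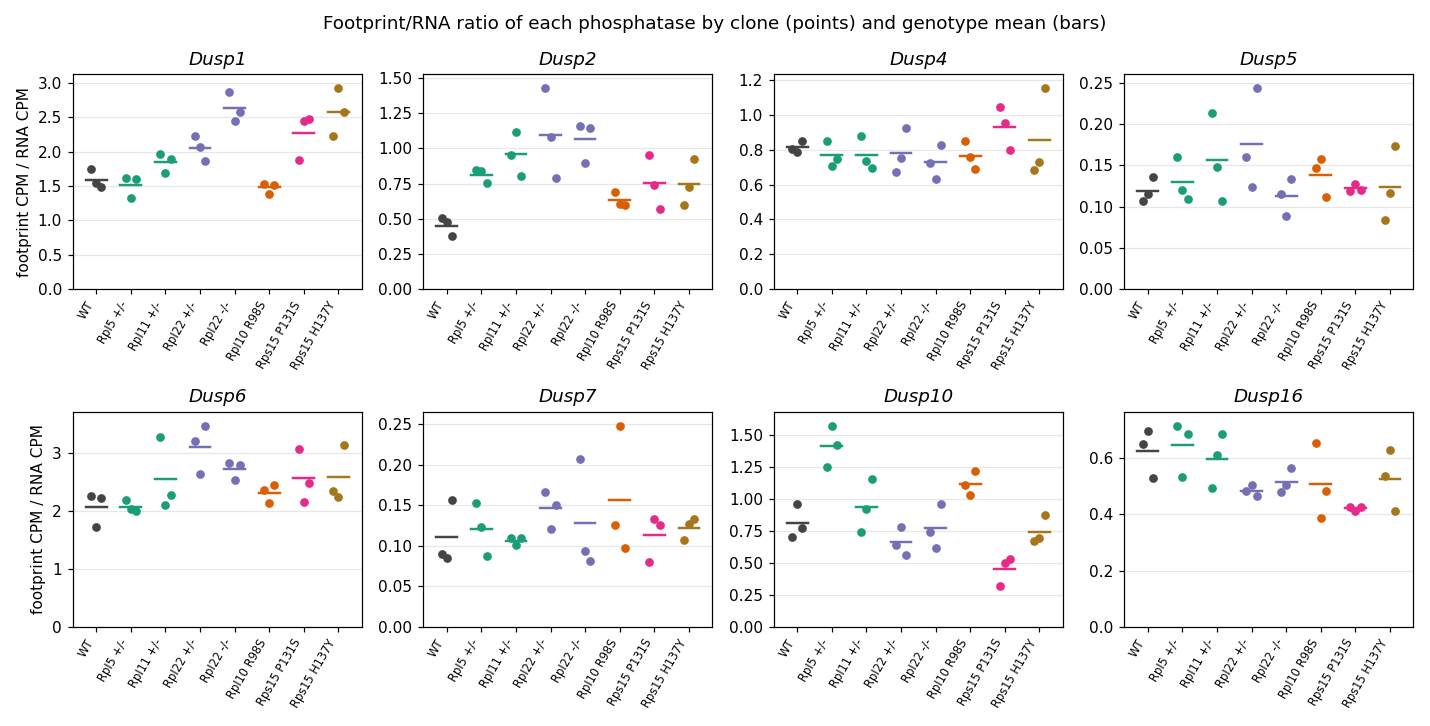
Ratio of footprint CPM to RNA CPM of each phosphatase (linear axis from 0, no unit) in the 8 genotypes; points are the 3 clones and bars their mean. The Dusp2 ratio lies above WT in all 21 mutant clones, and the Dusp1 ratio is highest in Rpl22 -/- and both Rps15 mutants.

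The footprint/RNA ratio was tested as the interaction of assay and genotype over all 48 libraries, in 16573 genes. This fit did not pair the RNA and footprint library of a clone, and in it edgeR called no member in any comparison. Calls from an edgeR fit that pairs them are given with Dusp2 and Dusp1 below. The background was 0% in Rpl5 +/-, 0% in Rpl11 +/-, 0.00603% in Rpl22 +/-, 0.0121% in Rpl22 -/-, 0.211% in Rpl10 R98S/R98S, 3.25% in P131S and 2.74% in H137Y. It was 0% between both Rpl22 genotypes and 0.73% between both Rps15 mutations. In that order, and without Dusp2 in Rpl5 +/- and Rpl11 +/-, 1, 0, 2, 2, 0, 4, 2, 0 and 0 members had an unadjusted p under 0.05. Of all 16573 genes, 453, 635, 1306, 829, 1249, 2531, 2347, 1486 and 1900 had such a p. DESeq2 called 1 member in each Rpl22 genotype against WT, Dusp2 both times, and limma voom called 0 in every comparison.

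The Dusp2 ratio was 0.503, 0.473 and 0.377 in WT. It was 0.843, 0.842 and 0.753 in Rpl5 +/- and 0.954, 1.12 and 0.804 in Rpl11 +/-. It was 1.43, 1.08 and 0.786 in Rpl22 +/- and 1.16, 0.896 and 1.14 in Rpl22 -/-. All mutant clones lay above WT, so Dusp2 footprints were higher by a larger factor than Dusp2 RNA in each of them.

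The Dusp2 ratio was 0.693, 0.604 and 0.600 in Rpl10 R98S/R98S, 0.952, 0.738 and 0.566 in P131S and 0.597, 0.724 and 0.924 in H137Y. Its log2 change was 0.85 (SE 0.30) in Rpl5 +/-, 1.10 (SE 0.30) in Rpl11 +/-, 0.50 (SE 0.30) in Rpl10 R98S/R98S, 0.72 (SE 0.30) in P131S and 0.71 (SE 0.30) in H137Y. In Rpl22 +/- it was 1.25 (SE 0.30, adjusted p = 0.137), and with the clone as a replicate block 1.25 (SE 0.23, adjusted p = 0.0329). In Rpl22 -/- it was 1.22 (SE 0.30, adjusted p = 0.307), and with the replicate block 1.23 (SE 0.23, adjusted p = 0.0507), which does not pass. Without clone 30 the Rpl22 -/- value was 1.14, and without clone 24 that of P131S was 0.76, both with no block.

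The Dusp1 ratio was 1.75, 1.54 and 1.48 in WT, 1.88, 2.45 and 2.47 in P131S and 2.23, 2.92 and 2.57 in H137Y. Every clone of both mutants was above WT, and the changes of 0.53 (SE 0.25, adjusted p = 0.296) and 0.70 (SE 0.25, adjusted p = 0.141) did not pass by edgeR without the block. With the replicate block, which pairs the RNA and footprint library of each clone, they were 0.50 (SE 0.13, adjusted p = 0.0291) and 0.69 (SE 0.14, adjusted p = 0.00446) and passed. In Rpl22 -/- the ratio was 2.87, 2.44 and 2.58, with a change of 0.73 (SE 0.25, adjusted p = 0.773), or 0.73 (SE 0.14, adjusted p = 0.0507) with the block. With no block it was 0.66 without clone 30, and the P131S value was 0.50 without clone 24.

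Among the other members, the ratio of Dusp10 and Dusp16 lay below WT in P131S, where their RNA was higher. The Dusp6 ratio was 2.25, 1.72 and 2.22 in WT and above the highest WT clone in 14 of 21 mutant clones, with changes of 0.00 to 0.59. The Dusp16 ratio was below the lowest WT clone in 12 of 21 mutant clones, and in P131S it was 0.425, 0.413 and 0.427 against 0.652, 0.697 and 0.532 in WT (change -0.56, SE 0.23, adjusted p = 0.2 by edgeR). The Dusp10 ratio was 0.321, 0.496 and 0.532 in P131S against 0.702, 0.959 and 0.772 in WT (change -0.81, SE 0.36, adjusted p = 0.264). Without clone 24 these P131S changes were -0.52 for Dusp16 and -0.84 for Dusp10. In Rpl5 +/- the Dusp10 ratio was 1.25, 1.57 and 1.42, above every WT clone (change 0.80, SE 0.37, adjusted p = 1). The Dusp4 changes ran from -0.19 to 0.18, those of Dusp5 from -0.09 to 0.55 and those of Dusp7 from -0.09 to 0.47.

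The rest of the pathway was counted from lists that were also written with earlier results known, and the share of all genes called in each comparison is the one given above. Of 16 tested feedback inhibitors and transcripts known to follow ERK signalling, 3 were called higher and 11 lower in P131S RNA, with a median change of -0.57. In H137Y RNA 4 were higher and 9 lower, with a median of -0.30. The members with the largest changes were Fosb and Egr3, both immediate early transcription factors. Fosb RNA was higher in P131S (2.59, SE 0.29) and H137Y (1.77, SE 0.29), and Egr3 RNA was lower (-2.52, SE 0.28, and -2.06, SE 0.27). Fosb RNA was also called higher in Rpl11 +/- (1.88), Rpl22 +/- (1.73), Rpl22 -/- (1.58) and Rpl10 R98S/R98S (1.08). Both genes were low: mean Fosb RNA was 1.95 CPM in WT. Mean Egr3 RNA was 3.65 CPM in WT, 0.63 in P131S and 0.87 in H137Y. In Rpl22 +/- 4 of the 16 were higher and 3 lower, in Rpl22 -/- 2 and 2, in Rpl11 +/- 2 and 3, in Rpl10 R98S/R98S 2 and 1, and in Rpl5 +/- 0 and 0.

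In footprints, 2 of 15 tested genes of that list were called higher and 3 lower in P131S, and 2 higher and 2 lower in H137Y. Spred1, which restrains Raf activation, was lower in footprints in both (-2.41, SE 0.37, and -1.50, SE 0.36) and also in ratio (-1.84, SE 0.35, and -1.25, SE 0.35). Its relative Spred2 was lower in ratio as well (-1.26, SE 0.23, and -0.91, SE 0.23). Spred1 and Spred2 were the 2 genes called lower in ratio in each Rps15 mutant. Spred2 footprints were lower in P131S (-1.83, SE 0.24) and also in Rpl10 R98S/R98S (-1.06, SE 0.24). Fosl1, an AP-1 subunit known to follow ERK activity, had higher footprints in Rpl22 +/- (1.67, SE 0.29), Rpl22 -/- (1.64, SE 0.29), Rpl10 R98S/R98S (1.38, SE 0.29) and H137Y (1.76, SE 0.29).

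In the Ras-Raf arm, all 11 genes were tested. Sos1, the exchange factor that loads Ras with GTP, was called lower in RNA in all 7 mutant genotypes, by 0.34 to 0.67 on the log2 scale: -0.34 in Rpl22 +/- and in Rpl10 R98S/R98S, -0.39 in Rpl22 -/-, -0.49 in Rpl5 +/-, -0.59 in P131S, -0.61 in H137Y and -0.67 in Rpl11 +/-. Its footprints were lower in P131S (-1.12, SE 0.21) and H137Y (-1.20, SE 0.21). In P131S RNA 3 of the 11 were higher and 2 lower, and in H137Y 2 and 5.

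Of 9 tested MAP kinases, 1 was higher and 2 were lower in P131S RNA, and 1 and 4 in H137Y. The one higher in both was Mapk6, an atypical MAP kinase (0.58, SE 0.08, and 0.50, SE 0.08), whose ratio was lower (-0.83, SE 0.20, and -0.79, SE 0.20). Neither was particular to the Rps15 mutants. Mapk6 RNA was also called higher in Rpl11 +/- (0.32), Rpl22 +/- (0.33) and Rpl10 R98S/R98S (0.29), and its ratio lower in Rpl10 R98S/R98S (-0.96, SE 0.20). Of 6 tested MAP kinase kinases, 4 were higher and 1 was lower in P131S RNA and 2 and 1 in H137Y, led by Map2k3, an activator of p38 (0.79, SE 0.08, and 0.74, SE 0.08). Ptpn7, a tyrosine phosphatase of ERK and p38 in blood cells, was higher in RNA in P131S (0.57, SE 0.14) and H137Y (0.66, SE 0.14), and in footprints (0.68, SE 0.20, and 0.62, SE 0.20). Of 9 tested atypical dual-specificity phosphatases, which lack the MAP kinase binding domain, 4 were higher and 1 was lower in RNA in each Rps15 mutant, and the lower one was Dusp19 (-0.67, SE 0.14, and -0.74, SE 0.14).

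Over the 24 RNA libraries, which share genotypes and so are not independent points, correlations describe which genes varied alike. The Pearson correlation of log2 CPM was 0.85 between Dusp4 and Dusp6, 0.78 between Dusp1 and Dusp16, and 0.69 between Dusp1 and Dusp2 and between Dusp2 and Dusp16. It was -0.61 between Dusp2 and Dusp6. The 3 genes most alike were Cmas (0.955), Gpr146 (0.953) and Eps8 (0.937) for Dusp4, Pim2 (0.952), AI467606 (0.951) and Hbp1 (0.948) for Dusp6, and Lamtor4 (0.932), Tusc3 (0.928) and Arl2 (0.925) for Dusp5.

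For the remaining members, genes among the closest 3 were less alike. They were Kti12 (0.843), Trmt1 (0.839) and Slc35e4 (0.834) for Dusp2, Jun (0.812) and Npm3 (0.79) for Dusp16, and Ifi30 (0.828), Rps2 (0.806) and Jun (0.804) for Dusp1. For Dusp10 they were Per1 (0.817), H3f3b (0.765) and Lyrm1 (0.755). For Dusp7, the member with no call against WT, they were Trmt2a (0.687), Xpo1 (0.68) and Ddx20 (0.655). These correlations are a description over genotypes that differ in many genes, and no test was made of them.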

How the data were processed

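RNA and footprint libraries of 24 clones, 3 for each of 8 genotypes, were analysed. The authors deposited 1 table of estimated counts per gene, not normalized, of which 11.5% are fractional. STAR 2.6.1d, Salmon 1.4.0, DESeq2 1.30 and the build GRCm38 are named in the submitters' processing notes, with no role given. How reads shared between genes, or strand, were handled is not given in the sources used here. Symbols missing from the table were filled for 23112 identifiers from a table of gene names.

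Estimated counts were rounded, filtered with filterByExpr (minimum count 10, minimum total 15), scaled by TMM within each assay and tested with edgeR 4.0.16 (quasi-likelihood, robust, R 4.3.3), all libraries of an assay in 1 fit. The ratio was the interaction of assay and genotype over 48 libraries. Tests were two-sided. SE is the log2 change divided by the square root of its F statistic. Correlations used log2(CPM + 0.1). The steps were tested on simulated data. Alternatives were DESeq2 1.42.0, limma voom 3.58.1, median-of-ratios scaling, no count filter, a fit to the 2 groups compared, leaving out each clone and, for the ratio, the clone as a block. Every clone number occurs in both assays: over 8492 genes, deviations from the genotype mean correlated by 0.146 to 0.599 within all 24 clones, and by -0.518 to 0.023 between different clones.

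The members and all gene lists were chosen with earlier results of these data known. All 8 members were named in every comparison. Of other pathway genes, those with the 2 largest changes among the called genes of a list were eligible, and the 3 genes most correlated with each member were named, except where an item is not reported here. No 2 columns of the table were identical.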

Additional observations from a re-analysis of the deposited data

How the results depend on the processing

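The counts of members called moved by over 1.5 times as follows. They include Dusp2, and nothing is read from those of Rpl5 +/- and Rpl11 +/-. With DESeq2, RNA gave 3 (Rpl11 +/-) and 4 (Rpl22 +/-), footprints 2 (Rpl22 +/-) and the ratio 1 in Rpl22 +/- and 1 in Rpl22 -/-. Of all genes, DESeq2 called 1909 in Rpl11 +/- RNA and 708 in Rpl22 +/- RNA, against 1508 and 500 in the main fit. With limma voom, RNA gave 3 in Rpl11 +/-, among 1597 genes called, and footprints 0 in Rpl5 +/-. Without the count filter, which tests more genes, RNA gave 1 in Rpl22 +/- and 0 in Rpl22 -/-. The genes called there were 343 and 485, against 500 and 675 in the main fit. In fits to the 2 groups compared, RNA gave 4 (Rpl5 +/-), 3 (Rpl11 +/-) and 4 (Rpl22 +/-), footprints 0 (Rpl22 +/-), and P131S against H137Y 0 at both levels. The RNA fits of Rpl5 +/-, Rpl11 +/- and Rpl22 +/- called 1866, 855 and 1248 genes, against 133, 1508 and 500 in the main fit. Leaving out 1 clone gave 0 to 1 (Rpl5 +/-), 1 to 3 (Rpl11 +/-), 1 to 1 (Rpl22 +/-), 0 to 1 (Rpl22 -/-) and 1 to 2 (Rpl10 R98S/R98S) in RNA, and 0 to 1 (Rpl5 +/-) and 0 to 2 (P131S against H137Y) in footprints. In RNA, the Rpl22 +/- fits of this kind called 212 to 336 genes. The Rpl5 +/- RNA fits that called 0 members called 1 or 2 genes. With the replicate block, which pairs both assays of a clone, the ratio gave 1 in Rpl22 +/- (Dusp2), 1 in P131S and 1 in H137Y (Dusp1); the block changed no other call of a member, and called 783 genes in P131S and 616 in H137Y against 538 and 454 without it, and 9, 4, 73 and 151 against 1, 2, 35 and 121 in Rpl22 +/-, Rpl22 -/-, Rpl10 R98S/R98S and P131S against H137Y. The cause of these shifts was not tested. Single changes were followed only where they exceeded their SE in the main fit, which left 125 changes. Smaller changes, whose sign turns more easily, are not in these counts. Of 1404 recomputed values of those changes 1318 kept direction and side of the threshold, 50 lost and 32 gained a call. The sign turned in 4, none of them called, as single clones were left out: Dusp5 RNA in P131S (-0.57 to 0.01, the latter without clone 20), Dusp7 in Rpl10 R98S/R98S in footprints (-0.06 to 0.92) and ratio (-0.02 to 0.84), both lowest without clone A30, and Dusp16 footprints in H137Y (-0.44 to 0.02, the latter without clone 6). Smaller moves were 3 for 2 in Rpl22 -/- RNA with DESeq2, 5 for 6 in P131S RNA and 4 for 3 in H137Y RNA in fits to the 2 groups, and 3 for 4 in H137Y footprints with no count filter.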
